A study of Sus scrofa with 63 samples.

Results

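The nuclear genes for the respiratory chain and for ATP synthase were followed in pig skin after exposure to sulfur mustard, an alkylating agent that blisters skin. Genes were taken by the start of their symbol in the platform annotation of the array: NDUF, SDH with the letters A to D, UQCR, COX followed by a digit from 4 to 8, and ATP5. Only probe sets with 1 symbol were used, and each gene was read from the probe set with the highest mean over all 63 arrays. This gave 63 genes out of 6765 genes with 1 symbol, held by 80 of the 23999 probe sets tested. Complex I had 32 genes, its assembly factors 3, complex II 4, complex III 2, complex IV 8 and complex V, the ATP synthase, 14. All 63 were kept in every fit, since no filter on low values was applied. A further 4 probe sets with several symbol entries were left out, among them a probe set that lists ATP5SL in both entries. By name, 0 mitochondrially encoded genes were found among the probe sets.

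The animals were female Yorkshire crossbred pigs. Exposed sites received 400 µL of neat sulfur mustard for 8 min within a template that gave 3 cm lesions on the ventral abdomen, and 8 mm punch biopsies were taken at 1, 2, 4, 24, 48, 72, 168, 336 or 514 h. At each time 3 arrays came from exposed sites and 3 from unexposed control sites, which the design places on the same 3 animals, and 1 array came from a sham animal that was prepared and not exposed. That made 27 exposed, 27 control and 9 sham arrays, each a whole-biopsy RNA sample on an Affymetrix porcine array. The series' design text calls the last time 21 d.

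Complexes I and II pass electrons from NADH and succinate to ubiquinone, complex III passes them to cytochrome c, and complex IV passes them to oxygen. The proton gradient built along the way drives ATP synthase. Most subunits are encoded in the nucleus and imported into the mitochondrion. Skeletal muscle is dense in mitochondria, and heart and skeletal muscle use their own forms of some complex IV subunits, among them COX7A1 and, in mammals that keep the gene, COX8H.

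Array medians lay between 7.75 and 7.86 on the deposited log2 scale. The keratin genes KRT1 and KRT10 and the fibroblast gene DCN, which encodes decorin, lay at the 99.6, 99.7 and 99.8 percentile of mean level. Of 6 basal keratinocyte markers 2 were measured, COL17A1 at the 45.9 and ITGA6 at the 10.9 percentile. Genes of skeletal muscle were also bright. CKM, the muscle creatine kinase gene, lay at the 97.3 percentile, and it ranged widely between biopsies. From 24 to 72 h CKM averaged 11.65 ± 2.27 in exposed arrays and 13.36 ± 0.56 in control arrays (SD, n = 9 each), a difference of -1.70 (exact permutation test within times, two-sided, Benjamini-Hochberg over 9 tests, adjusted p = 0.0304). From 168 to 514 h it averaged 9.02 ± 2.84 in exposed and 11.39 ± 2.69 in control arrays, and the difference of -2.37 did not pass the threshold of 0.05 (exact permutation test, adjusted p = 0.115). From 1 to 4 h the averages were 12.72 ± 2.21 and 12.48 ± 1.82 (adjusted p = 0.77, exact permutation test). The mean of the 20 measured muscle markers out of 27 listed ran from 7.22 to 12.69 in exposed and from 10.20 to 13.37 in control arrays from 24 to 72 h (difference -1.78, exact permutation test, adjusted p = 0.0315). Leaving out 1 array ended the call for CKM in 5 of 18 cases and for the muscle mean in 5 of 18, with differences that ran from -1.99 to -1.44 and from -2.06 to -1.42. Pairing arrays by number also ended both calls (exact sign-flip permutation, adjusted p = 0.0633 each). The mean of the 10 measured fat markers out of 13 listed was lower from 168 to 514 h, at 9.88 ± 0.34 in exposed arrays and 10.36 ± 0.36 in control arrays (SD, n = 9 each), a difference of -0.48 that was negative in 9 of 9 pairs (exact permutation test, adjusted p = 0.0045, and 0.0352 with the arrays paired). Of these 10 markers 7 were called lower by limma in that window, and from 24 to 72 h the fat mean differed by -0.08 (exact permutation test, adjusted p = 0.466). Because muscle is rich in mitochondria, each comparison below was fitted without and with the CKM value of the array as a covariate. In a bulk biopsy, fewer cells of a type and less RNA per cell cannot be told apart.

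Of the 63 genes, 10 rose in exposed skin at 24 h, 6 fell at 168 h and none passed the test at 1, 2 or 4 h. The 10 were 15.9% of these genes, where 14.4% of all probe sets and 24.9% of all genes with 1 symbol were higher. The 6 were 9.52%, where 8.06% of all probe sets and 9.46% of all genes with 1 symbol were lower. At 24 h 56 of the 63 genes had a positive difference and the median difference was 0.30 on the log2 scale. At 168 h 11 of 63 were positive and the median was -0.20. The median over all probe sets tested was -0.01 at 24 h and 0.003 at 168 h. The genes that passed the test at 24 h came from complexes I, II, IV and V and from the assembly factors. Those that fell at 168 h were ATP5S, ATP5E, COX6C, NDUFB9, NDUFS6 and COX7A1, the muscle form of a complex IV subunit. Of these, ATP5S, ATP5E and COX6C kept their calls without each array in turn, and also with CKM in the fit.

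Counts of genes past the test are from limma, with Benjamini-Hochberg adjustment over all 23999 probe sets and a threshold of 0.05, and the share of all probe sets called stands beside each. At 1 h 0 of 63 genes passed (1.2% of all probe sets), with 5 at an unadjusted p under 0.05. At 2 h 0 passed (0.392% of all probe sets, 1 unadjusted) and at 4 h 0 passed (1.45%, 0 unadjusted). At 24 h 10 were higher and 0 lower, where 27.1% of all probe sets changed and 14.4% were higher. In this fit, which does not pair sites, 15.9% of the genes were called higher at 24 h. Among all 6765 genes with 1 symbol 24.9% were higher. At 48 h 4 were higher (9.95% of all probe sets called), and at 72 h 0 passed (9.65%, 0 unadjusted). At 168 h 6 were lower and 0 higher, where 17.9% of all probe sets changed and 8.06% were lower. At 336 h 0 passed (4.04%, 0 unadjusted) and at 514 h 0 passed (5.83%, 3 unadjusted). The labels give 1 sacrifice day for both arrays of each number at a time, but they do not say that a number marks 1 animal. With same-numbered arrays paired as a block, 21 genes were higher at 24 h (16.6% of all probe sets) and 12 were lower at 168 h (10.6%).

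Averaged over the 3 times of a window, 0 of 63 passed from 1 to 4 h (5.48% of all probe sets, 5 unadjusted). The unadjusted count over all 23999 probe sets in that window was 3813. From 24 to 72 h 8 were higher and 1 lower (35.1% of all probe sets called). From 168 to 514 h 1 was higher and 5 lower (21.9%). In each window the share of these genes called was below that of all probe sets. The counts at single times rested on few arrays. The 24 h count was 5 without exposed replicate 1, without exposed replicate 3 or without control replicate 3. The 48 h count was 1 without exposed replicate 3 or control replicate 2 and 2 without control replicate 1. The 168 h count was 3 without exposed replicate 2 or control replicate 3.

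**Figure D1:**
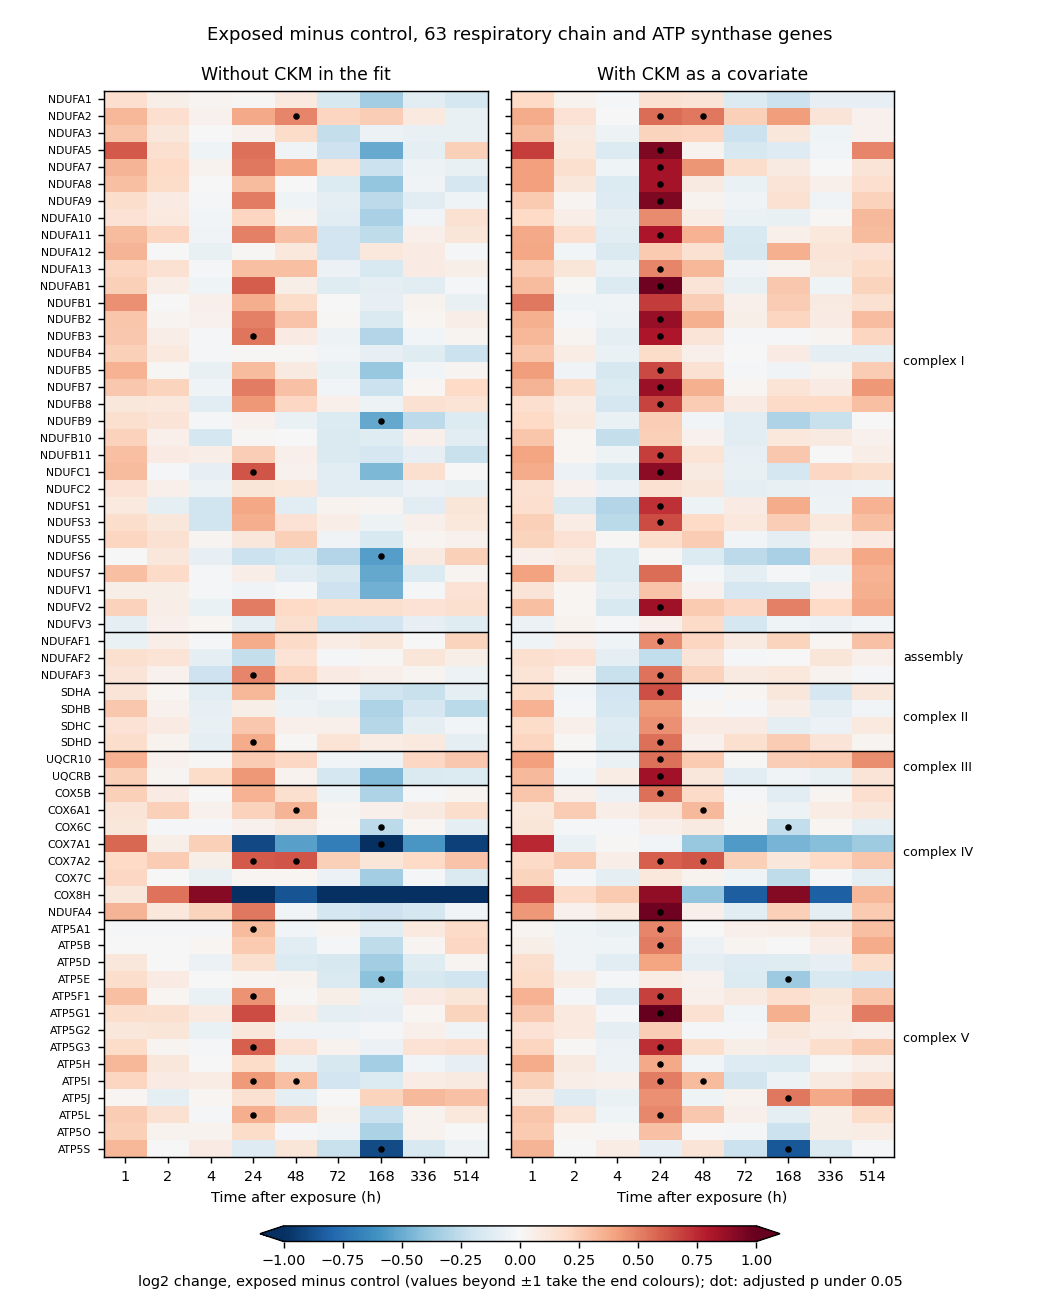
Log2 difference, exposed minus control, of each of the 63 genes (rows, by complex) at each of the 9 times (columns), without CKM on the left and with CKM as a covariate on the right. Dots mark genes past the limma test. The 24 h column carries 10 dots without CKM and 36 with it, and the 168 h column holds 6 dots without CKM, all for lower genes.

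The arrays of each time were also compared for overlap. At 24 h all 3 exposed arrays lay above all 3 control arrays for 37 of 63 genes, against 19.9% of all probe sets. They lay below for 3 genes, COX7A1, COX8H and NDUFS6, against 20.6% of all probe sets. At 1 h the exposed arrays lay above for 32 genes (5.4% of all probe sets), although the median difference was only 0.22 and no gene passed the test. At 168 h they lay below for 18 genes (15.3%) and above for 0. Pairing arrays by number, 42 of 63 genes were higher in 3 of 3 pairs at 24 h, against 25.7% of all probe sets, and 36 of 63 were lower in 3 of 3 pairs at 168 h, against 24.7%. The overlap was 21 genes, against 3.38% of all probe sets.

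Labelling reactions (in vitro transcription) of the 24 h and 168 h arrays were dated on 2 occasions each. At 24 h the median difference over the 63 genes was 0.26 within the later date (2 exposed and 2 control arrays) and 0.33 within the earlier date (1 and 1). At 168 h it was -0.30 within the earlier date (2 and 2) and 0.06 within the later date (1 and 1). A date with 1 array of each kind has no spread of its own, so whether either shift held within both dates could not be tested. Labelling dates were uneven between the arms at 1 h and 336 h. At 1 h the later date held 3 exposed and 2 control arrays, with a median of 0.20 and 58 of 63 genes positive. At 336 h the median was -0.14 within the earlier date (2 exposed, 1 control) and -0.04 within the later (1 and 2). At 24 h and 168 h other cell markers moved as well. Of the 8 neutrophil and macrophage markers measured, 5 were higher at 24 h and 7 at 168 h (median differences 1.39 and 1.76), and of 5 differentiated keratinocyte markers 4 were lower at both times (medians -1.22 and -4.31). The part of these cells in the differences was not tested.

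Complex I takes electrons from NADH and is the largest of the complexes. At 24 h 2 of its 32 genes were higher, NDUFC1 and NDUFB3, both accessory subunits, and 29 of 32 had a positive difference. NDUFC1 read 11.42, 10.93 and 11.23 in exposed skin, against 10.59, 10.53 and 10.58 in control skin, and 10.85 in the sham array. All exposed arrays lay above all control arrays, and the log2 difference was 0.63 ± 0.20 (SE, limma adjusted p = 0.0141), which is 1.54-fold. The call was lost without exposed replicate 1. NDUFB3 had a difference of 0.53 ± 0.21 (adjusted p = 0.0492), and leaving out any single array of the time ended its call.

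NDUFA2, an accessory subunit of the peripheral arm, rose as well. Its values at 48 h were 10.92, 10.94 and 11.17 in exposed skin, against 10.58, 10.30 and 10.67 in control skin (0.49 ± 0.15, adjusted p = 0.03). At 24 h they were 11.18, 11.05 and 11.32 in exposed, against 10.85, 10.81 and 10.76 in control skin, and at 72 h 11.11, 11.09 and 11.08, against 10.87, 10.87 and 10.91. At each of the 3 times the exposed arrays lay above the control arrays without overlap. Over 24 to 72 h NDUFA2 rose by 0.36 ± 0.09 (adjusted p = 0.000984), higher in 9 of 9 pairs, and it kept its call without each array in turn. NDUFA7, another accessory subunit, rose by 0.35 ± 0.12 over the same window (adjusted p = 0.0244, higher in 7 of 9 pairs) and lost its call in 3 of 18 cases with 1 array left out.

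At 168 h NDUFB9 and NDUFS6, accessory subunits of the membrane arm and of the peripheral arm, were lower. NDUFB9 read 11.72, 11.50 and 11.80 in exposed skin, against 12.11, 11.98 and 12.47 in control skin. The groups did not overlap, and the difference was -0.51 ± 0.15 (adjusted p = 0.0118). NDUFS6 read 9.71, 9.38 and 9.87 in exposed skin, against 9.97, 10.22 and 10.43 in control skin (-0.55 ± 0.19, adjusted p = 0.0356). Leaving out control replicate 3 or exposed replicate 2 ended both calls, and leaving out exposed replicate 1 or control replicate 2 ended that of NDUFS6. Over 168 to 514 h NDUFB9 fell by 0.30 on the log2 scale (SE 0.09, adjusted p = 0.00788, lower in 8 of 9 pairs). From 1 to 4 h the complex I gene with the smallest p was NDUFS5, at 0.13 ± 0.06 (adjusted p = 0.231).

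Of the 3 assembly factors, proteins that build complex I and leave it, NDUFAF3 rose when each was read from its brightest probe set. It read 10.06, 9.91 and 10.26 in exposed skin at 24 h, against 9.47, 9.66 and 9.65 in control skin. The groups did not overlap, and the difference was 0.49 ± 0.10 (adjusted p = 0.000321), while that over 24 to 72 h was 0.26 ± 0.06 (adjusted p = 0.000515). This was more than over 1 to 4 h by 0.27 ± 0.08 (adjusted p = 0.0198 for the difference itself). The smallest p among the assembly factors belonged to NDUFAF2 from 1 to 4 h (0.07 ± 0.08, adjusted p = 0.778) and to NDUFAF1 from 168 to 514 h (0.11 ± 0.09, adjusted p = 0.411). NDUFAF1 has a pair of probe sets of similar brightness that gave different calls. The brighter, with a mean of 7.38, differed by 0.37 ± 0.15 at 24 h (adjusted p = 0.0664) and by 0.21 ± 0.09 from 24 to 72 h (adjusted p = 0.0567). The other, with a mean of 7.23, rose by 0.79 ± 0.15 at 24 h (adjusted p = 5.49e-05), by 0.46 ± 0.15 at 48 h (adjusted p = 0.0379), by 0.47 ± 0.15 at 72 h (adjusted p = 0.0323) and by 0.575 ± 0.085 from 24 to 72 h (adjusted p = 7.75e-07).

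Complex II oxidises succinate and belongs to the citric acid cycle as well. SDHA, its flavoprotein, read 11.12, 10.96 and 11.25 in exposed skin at 24 h, against 10.80, 10.74 and 10.78 in control skin (0.33 ± 0.20, adjusted p = 0.243). SDHD, an anchor in the membrane, read 11.88, 11.77 and 12.10 in exposed skin, against 11.46, 11.61 and 11.57 in control skin, and was the only complex II gene called at 24 h (0.37 ± 0.14, adjusted p = 0.0419). Both had exposed arrays wholly above control arrays, and the SDHD call was lost in 5 of 6 cases with 1 array left out. SDHB, the iron-sulfur subunit, differed by 0.06 ± 0.23 and SDHC, the other anchor, by 0.27 ± 0.16, and both groups overlapped. Over 24 to 72 h the 4 differences ran between -0.02 for SDHB and 0.175 for SDHD, and over 168 to 514 h between -0.25 for SDHB and 0.03 for SDHD, with none called. From 1 to 4 h SDHB had the smallest p (0.08 ± 0.13, adjusted p = 0.884).

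Complex III was measured by UQCR10, a small subunit, and by UQCRB, which lies near the ubiquinone site. Neither passed the test at any time without CKM. At 24 h UQCRB read 11.70, 11.49 and 11.86 in exposed skin, against 11.22, 11.34 and 11.19 in control skin (0.43 ± 0.25, adjusted p = 0.208). At 168 h it read 10.84, 10.82 and 11.15 in exposed skin, against 11.11, 11.21 and 11.81 in control skin (-0.44 ± 0.25, adjusted p = 0.231). The arrays were apart at 24 h and overlapped at 168 h. UQCR10 had the smallest p of the pair from 1 to 4 h (0.13 ± 0.12, adjusted p = 0.67) and from 24 to 72 h (0.145 ± 0.12, adjusted p = 0.365), and UQCRB from 168 to 514 h (-0.24 ± 0.14, adjusted p = 0.245).

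Complex IV, cytochrome c oxidase, passes electrons on to oxygen, and 1 of its 8 genes rose and 0 fell at 24 h. COX7A2 encodes the form of subunit VIIa found in most tissues. At 24 h it read 12.58, 12.61 and 12.76 in exposed skin, against 12.04, 12.16 and 11.91 in control skin, and 12.04 in the sham array. At 48 h it read 12.13, 12.12 and 12.27 in exposed skin, against 11.45, 11.22 and 11.96 in control skin. At 72 h it read 12.27, 12.19 and 12.39 in exposed skin, against 12.13, 11.68 and 12.30 in control skin. The groups were apart at 24 and 48 h and overlapped at 72 h. COX7A2 rose by 0.61 ± 0.13 at 24 h (1.53-fold, adjusted p = 0.000273), by 0.63 ± 0.13 at 48 h (adjusted p = 0.00102) and by 0.49 ± 0.07 over 24 to 72 h (adjusted p = 1.07e-06), higher in 9 of 9 pairs. Over 1 to 4 h the difference was 0.17 ± 0.07 (adjusted p = 0.23), and the rise from 24 to 72 h exceeded it by 0.32 ± 0.11 (adjusted p = 0.0274). Over 168 to 514 h COX7A2 was higher by 0.20 ± 0.07 (adjusted p = 0.0442, 9 of 9 pairs), a call lost in 12 of 18 cases with 1 array left out.

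COX7A1 is the heart and skeletal muscle form of the same subunit. At 168 h it read 8.57, 8.42 and 8.73 in exposed skin, against 9.39, 9.40 and 10.95 in control skin, and 9.23 in the sham array. At 24 h it read 8.75, 8.70 and 8.88 in exposed skin, against 9.66, 9.80 and 9.57 in control skin. The exposed arrays lay below all control arrays at both times, and the control array at 10.95 is control replicate 3, whose CKM value of 13.77 was the highest of its time. COX7A1 fell by 1.34 at 168 h (SE 0.44, adjusted p = 0.0286), while the 24 h difference of -0.90 ± 0.44 did not pass (adjusted p = 0.134). The 168 h difference was -0.82 without control replicate 3, and the call was lost without that array, without exposed replicate 1 or without exposed replicate 2. Over 24 to 72 h COX7A1 fell by 0.71 (SE 0.26, adjusted p = 0.0262, lower in 8 of 9 pairs, lost in 3 of 18 cases), and over 168 to 514 h by 0.95 (SE 0.26, adjusted p = 0.00492, lower in 9 of 9 pairs).

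COX8H, the heart and muscle form of subunit VIII, had the largest standard error of the 63 genes. It read 8.91, 8.69 and 8.59 in exposed skin at 24 h, against 10.69, 10.83 and 9.58 in control skin, and 8.56, 8.47 and 8.62 in exposed skin at 168 h, against 8.83, 8.75 and 12.87 in control skin. The groups were apart at both times. With a standard error of 1.11 the differences of -1.64 and -1.60 were not called (adjusted p = 0.311 and 0.355). Without control replicate 3, the array at 12.87, the difference at 168 h was -0.24.

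Of the other complex IV genes, COX6A1, the form of subunit VIa found outside heart and muscle, was higher at 48 h (0.34 ± 0.11, adjusted p = 0.0442, lost in 5 of 6 cases with 1 array left out) and from 24 to 72 h (0.20 ± 0.07, adjusted p = 0.0141). COX6C, a small subunit, read 12.45, 12.47 and 12.59 in exposed skin at 168 h, against 12.77, 12.70 and 12.82 in control skin. The exposed arrays lay below all control arrays, and COX6C fell by 0.26 (SE 0.07, adjusted p = 0.00427). Over 168 to 514 h it fell by 0.11 (SE 0.04, adjusted p = 0.0312), a call lost in 7 of 18 cases with 1 array left out.

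**Figure D2:**
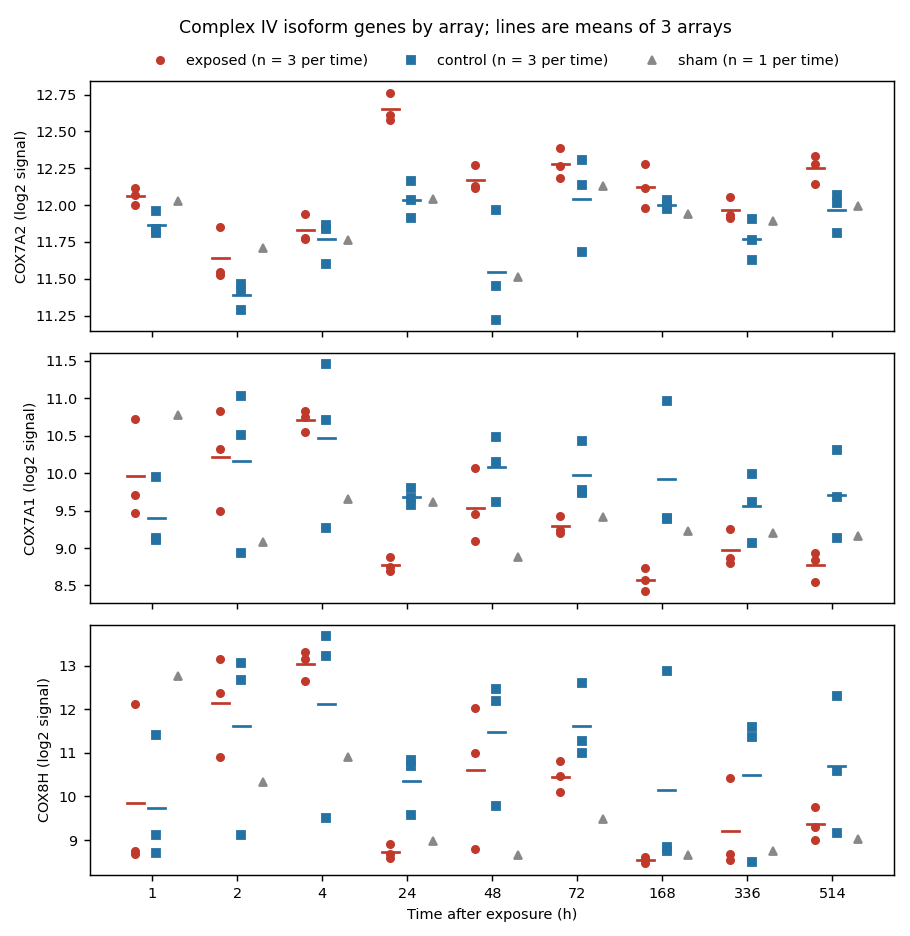
Deposited log2 value of COX7A2, COX7A1 and COX8H on each array against time after exposure, with exposed, control and sham arrays as separate points. At 24 and 48 h the exposed points of COX7A2 lie above the control points, at 24 h those of COX7A1 and COX8H lie below, and 1 control array at 168 h stands high for both muscle forms.

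ATP synthase makes ATP in its F1 head, driven by a ring of c subunits in the membrane. At 24 h 5 of its 14 genes rose. ATP5G3, which encodes subunit c, read 13.08, 13.07 and 13.15 in exposed skin, against 12.48, 12.53 and 12.49 in control skin, and 12.70 in the sham array. The lowest exposed array lay above the highest control array, and ATP5G3 rose by 0.60 ± 0.12 (1.51-fold, adjusted p = 8.41e-05). ATP5I and ATP5L encode the small membrane subunits e and g, and they rose by 0.43 ± 0.10 (adjusted p = 0.000852) and 0.36 ± 0.13 (adjusted p = 0.0299). ATP5F1, subunit b of the stalk, and ATP5A1, the alpha subunit of the head, are named here after their values were seen, and rose by 0.45 ± 0.155 (adjusted p = 0.0266) and 0.32 ± 0.12 (adjusted p = 0.0432). The ATP5L and ATP5F1 calls were each lost in 3 of 6 cases with 1 array left out and the ATP5A1 call in 5 of 6. Over 24 to 72 h ATP5G3 rose by 0.26 ± 0.07 (adjusted p = 0.00168), ATP5L by 0.215 ± 0.07 (adjusted p = 0.0197) and ATP5I by 0.18 ± 0.06 (adjusted p = 0.0123). ATP5I was also higher at 48 h (0.30 ± 0.10, adjusted p = 0.0433, lost in 3 of 6 cases). From 1 to 4 h ATP5I had the smallest p in the complex (0.12 ± 0.06, adjusted p = 0.265).

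At 168 h 2 ATP synthase genes fell. ATP5S, coupling factor B, read 7.90, 7.62 and 8.03 in exposed skin, against 8.94, 8.62 and 8.66 in control skin, and 8.35 in the sham array. The exposed arrays were all lower, and ATP5S fell by 0.89 (SE 0.14, 0.539-fold, adjusted p = 5.08e-06). ATP5E, the epsilon subunit of the head, read 12.52, 12.35 and 12.73 in exposed skin, against 12.84, 12.97 and 13.03 in control skin. It fell by 0.41 (SE 0.09, adjusted p = 0.000551), and its exposed arrays also lay below all control arrays at 336 and 514 h. Both kept their calls at 168 h without each array in turn.

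Over 168 to 514 h ATP5S fell by 0.365 (SE 0.08, adjusted p = 0.000516, lower in 8 of 9 pairs), although at 336 and 514 h its own differences were -0.16 and -0.05. ATP5E fell by 0.26 (SE 0.05, adjusted p = 0.000139, lower in 9 of 9 pairs), and its change was below that from 24 to 72 h by 0.23 (SE 0.07, adjusted p = 0.0344 for the difference).

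The differences between times were tested as such. Set against 1 to 4 h, the change from 24 to 72 h was higher in 2 of 63 genes, COX7A2 and NDUFAF3, and lower in 0 (16.5% of all probe sets called). Set against 24 to 72 h, the change from 168 to 514 h was lower in 1, ATP5E (8.45% of all probe sets called). With 1 array left out the calls of COX7A2 and ATP5E were lost in 2 and 10 of 36 cases and that of NDUFAF3 in 0. Set against 24 h, a contrast added after the values were seen, the change at 168 h was lower in 9 of 63 (10.3% of all probe sets called, 5.72% lower), with a median of -0.45 over the 63 genes and 4 of 63 above 0. The 9 were NDUFC1 (-1.07 ± 0.28), ATP5S (-0.77 ± 0.19), COX5B (-0.66 ± 0.22), ATP5G3 (-0.655 ± 0.16), ATP5L (-0.58 ± 0.18), ATP5I (-0.56 ± 0.14), ATP5E (-0.44 ± 0.12), NDUFAF3 (-0.43 ± 0.15) and COX6C (-0.30 ± 0.10). The count was 4 without exposed replicate 2 or control replicate 3 at 168 h and 5 without exposed replicate 3 at 24 h. With CKM in the fit it was 14 (10.9% of all probe sets called), and with arrays paired by number 19 (7.73% lower).

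Some subunits are encoded by several genes used in different tissues, and the change of 1 form relative to another within an array does not depend on the scale of the array. A total of 4 such pairs over 3 windows gave 12 exact permutation tests, two-sided, adjusted together. COX7A2 relative to COX7A1 differed between exposed and control skin by 1.20 log2 units from 24 to 72 h (SD of pairs 0.71, higher in 8 of 9 pairs, exact permutation adjusted p = 0.003) and by 1.16 from 168 to 514 h (SD 0.67, 9 of 9 pairs, adjusted p = 0.003). From 1 to 4 h it differed by -0.12 (SD 0.81, 3 of 9 pairs, adjusted p = 0.78). With the within-group CKM slope taken out of both genes the differences were 0.81 and 0.61 (exact permutation adjusted p = 0.003 each).

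ATP5G1, ATP5G2 and ATP5G3 encode the same mature subunit c behind different import sequences. At 24 h ATP5G1 read 12.28, 12.23 and 12.56 in exposed skin, against 11.78, 11.70 and 11.63 in control skin (0.65 ± 0.31, adjusted p = 0.116). ATP5G2 read 11.95, 11.93 and 12.08 in exposed skin, against 11.95, 11.96 and 11.71 in control skin (0.11 ± 0.13, adjusted p = 0.595). ATP5G1 and ATP5G3 had exposed arrays above all control arrays, and ATP5G2 overlapped. Over 24 to 72 h ATP5G2 relative to ATP5G3 differed by -0.25 (SD of pairs 0.24, higher in 2 of 9 pairs, exact permutation adjusted p = 0.042), a call lost in 15 of 18 cases with 1 array left out. ATP5G1 relative to ATP5G2 differed by 0.20 (SD 0.305, adjusted p = 0.181) and relative to ATP5G3 by -0.05 (SD 0.245, adjusted p = 0.78, exact permutation tests).

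Within the 27 groups of treatment and time, the level of many of these genes followed CKM. The slope, in log2 units per log2 unit of CKM, was above 0 past the limma test in 33 of 63 genes and below 0 in 0, that is 52.4% of them, against 2.93% of all probe sets. The median slope was 0.06. Positive slopes were called in 20 of 32 complex I genes, 2 of 4 in complex II, 2 of 2 in complex III, 3 of 8 in complex IV, 6 of 14 in complex V and 0 of 3 assembly factors. The steepest were COX8H at 0.65 ± 0.07 and COX7A1 at 0.23 ± 0.03. Far below them came NDUFA8 at 0.13 ± 0.03, NDUFS7 at 0.13 ± 0.03, NDUFA4 at 0.115 ± 0.02 and NDUFB11 at 0.115 ± 0.03. The lowest were COX6A1 at -0.03 ± 0.01, COX7A2 at -0.003 ± 0.01 and NDUFAF2 at -0.003 ± 0.02, none of them called. The forms of subunits VIa and VIIa found outside muscle thus had no positive slope, while the muscle forms of VIIa and VIII had the steepest.

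The slope count depended on single arrays and on the arm. It was 9 without control replicate 3 at 168 h, 15 without control replicate 2 at 4 h and between 9 and 38 over all 54 such cases. Exposed arrays alone gave 1 gene, with a median slope of 0.03 and a positive sign in 54 of 63, while control and sham arrays alone gave 43, with a median of 0.075 and a positive sign in 60. No share of all probe sets stands beside those counts of 1 and 43. The slope in exposed arrays was also tested against that in control and sham arrays (limma). It called 0 of the 63 genes and 0 of all 23998 probe sets, so the 0 is not particular to these genes. At an unadjusted p under 0.05 were 11 of the 63 genes and 863 of all 23998 probe sets. The points behind a slope share their array with CKM.

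**Figure D3:**
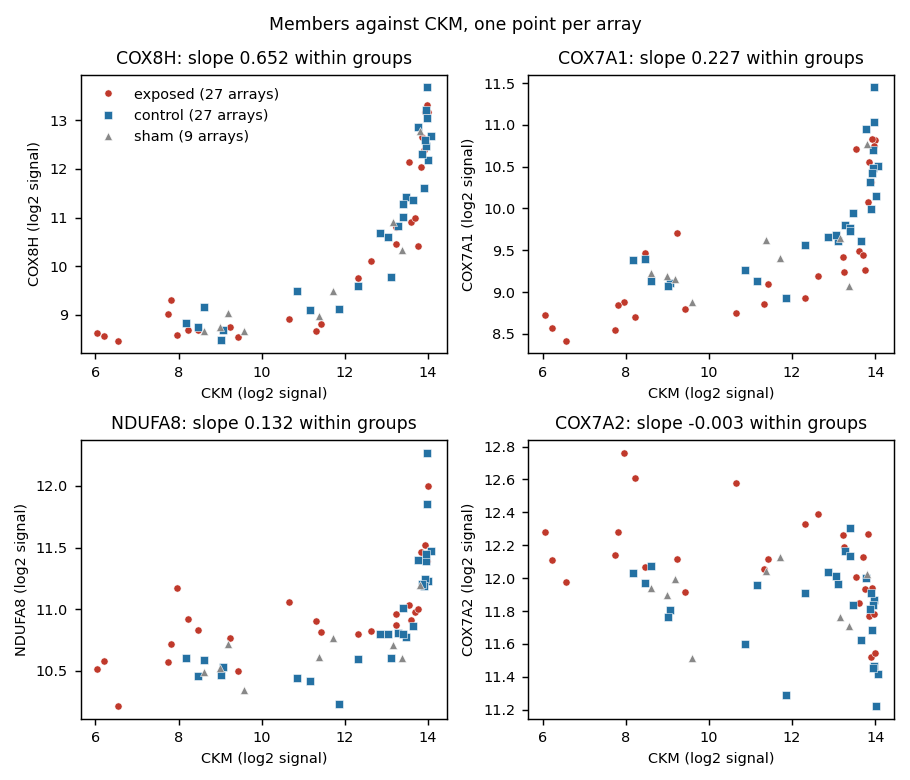
Log2 value of COX8H, COX7A1, NDUFA8 and COX7A2 on each of the 63 arrays against the log2 value of CKM on the same array, with exposed, control and sham arrays as separate points and the within-group slope given in each panel. COX8H and COX7A1 climb with CKM, NDUFA8 climbs less, and COX7A2 is flat, with a slope of -0.003.

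With CKM in the fit, 36 of 63 genes were higher at 24 h and 0 lower. Among all probe sets 27.6% were called at 24 h and 13.7% were higher, against 57.1% of these genes. All 10 genes called without CKM were among the 36, and 26 were called only with it. The median difference was 0.515. By complex 18 of 32 genes rose in complex I, 2 of 3 assembly factors, 3 of 4 in complex II, 2 of 2 in complex III, 3 of 8 in complex IV and 8 of 14 in complex V. The largest adjusted differences were those of ATP5G1 (1.09 ± 0.29, adjusted p = 0.00339), NDUFA4, a complex IV subunit (0.97 ± 0.23, adjusted p = 0.00112), NDUFAB1, the mitochondrial acyl carrier protein (0.97 ± 0.24, adjusted p = 0.00193), and NDUFA5 and NDUFA9, accessory subunits of complex I (0.93 ± 0.31 and 0.93 ± 0.225, adjusted p = 0.0231 and 0.00152).

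Array values without adjustment are given for NDUFA4 and NDUFAB1, neither of which was called without CKM. NDUFA4 read 12.81, 12.71 and 12.81 in exposed skin at 24 h, against 12.23, 12.32 and 12.19 in control skin (0.53 ± 0.26 without CKM, adjusted p = 0.144). NDUFAB1 read 11.96, 11.91 and 11.87 in exposed skin, against 11.35, 11.31 and 11.28 in control skin (0.60 ± 0.26 without CKM, adjusted p = 0.0766). Exposed arrays lay above control arrays in both. The CKM values at 24 h were 10.66, 8.22 and 7.96 in exposed skin, against 12.86, 13.27 and 12.31 in control skin. Those ranges did not overlap, so that the adjusted difference rests on the slope fitted within groups. The same held at 168 h, where CKM was 6.22, 6.55 and 6.05 in exposed skin, against 8.18, 8.47 and 13.77 in control skin.

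At the other times the fit with CKM called 0 of 63 at 1 h (1.47% of all probe sets, 21 unadjusted), 0 at 2 h (0.413%, 1 unadjusted) and 0 at 4 h (1.48%, 1 unadjusted). It called 4 higher at 48 h (10.5%), 0 at 72 h (10.1%, 0 unadjusted), 0 at 336 h (4.5%, 1 unadjusted) and 0 at 514 h (4.98%, 9 unadjusted). The unadjusted counts over all 23998 probe sets with CKM were 2842 at 1 h, 1211 at 2 h and 2230 at 4 h. They were 5230 at 72 h, 3581 at 336 h, 4478 at 514 h and 3855 from 1 to 4 h. At 168 h 1 gene was higher and 3 were lower (16.5% of all probe sets called), and the median difference was 0.06. ATP5J, coupling factor 6 of the stalk, was the higher gene (0.53 ± 0.19, adjusted p = 0.0453), and ATP5S, ATP5E and COX6C remained lower (-0.85, -0.36 and -0.25). COX7A1, NDUFB9 and NDUFS6 lost their calls (-0.465, -0.31 and -0.33). Over the windows 0 passed from 1 to 4 h (5.47%, 5 unadjusted), 24 were higher from 24 to 72 h (34.7%, median 0.22), and 3 were higher and 2 lower from 168 to 514 h (19.7%). The 3 were ATP5J (0.47 ± 0.11), NDUFV2, a core subunit of complex I (0.36 ± 0.12), and UQCR10 (0.32 ± 0.11). The 2 lower were ATP5S (-0.34 ± 0.09) and ATP5E (-0.23 ± 0.055). With 1 array left out, the count with CKM was 1 at 48 h without exposed replicate 3 or control replicate 2, and 2 at 168 h without exposed replicate 1, exposed replicate 2 or control replicate 1. From 168 to 514 h it was 3 without exposed replicate 3, control replicate 1 or control replicate 2 at 168 h.

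**Figure D4:**
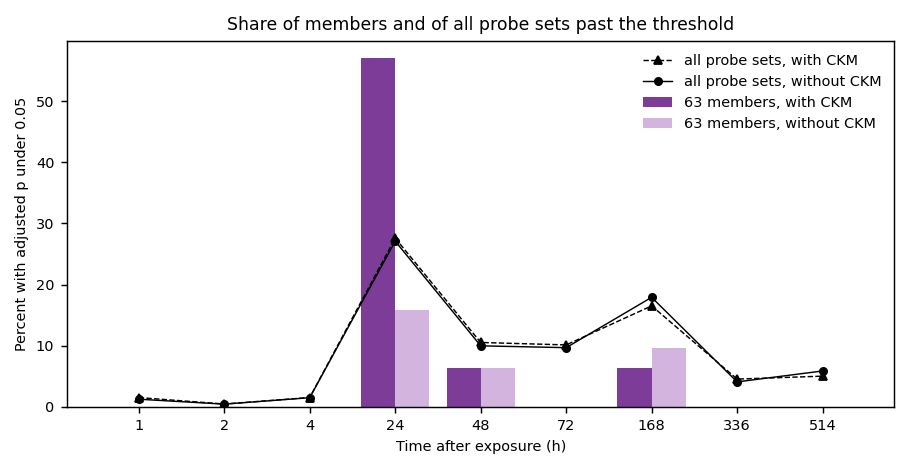
Share of the 63 genes past the limma test at each time (bars, in percent), without and with CKM as a covariate, beside the share of all probe sets (lines). At 24 h the bars stand at 15.9% without and 57.1% with CKM, against 27.1% and 27.6% of all probe sets, and at most other times they stand below the lines.

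Other muscle markers still differed after adjustment for CKM. Of the other 19 muscle markers, 3 at 24 h and 11 at 168 h were called higher in exposed skin, with median differences of 0.87 and 2.21. With the mean of the muscle markers as covariate these were 2 and 0, with medians of -0.01 and 0.17, but these markers are averaged into that covariate, so that their medians near 0 follow from its construction. That covariate called 38 of 63 respiratory chain genes higher at 24 h, where all 36 called with CKM were included (29.2% of all probe sets called, median 0.50), and 5 lower at 168 h (18.3%, median -0.04). A fit with CKM and its square, added after the values were seen, called 29 higher at 24 h, all among the 36 (25.3% of all probe sets, median 0.42). At 168 h it called 8 lower (8.0%, median -0.45), namely ATP5E, ATP5H, ATP5O, ATP5S, COX7A1, COX8H, NDUFB9 and UQCRB. The square term was above 0 past the test in 11 of 63 genes and in 16 of 19 muscle markers, against 1.53% of all probe sets called. The rise at 24 h thus passed in 29 to 38 genes under the 3 adjustments for muscle, while at 168 h the direction of the median differed between them. At 24 h the muscle marker mean did not overlap either, at 7.215 to 8.875 in exposed and 10.20 to 11.545 in control arrays. The 3 adjustments share this limit and are not independent of each other.

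None of the 14 genes with several probe sets had them called in opposite directions. At 24 h the second probe set of ATP5I differed by -0.12 ± 0.12, against 0.43 for the brightest. That of SDHB differed by 0.58 ± 0.28, against 0.06 for the brightest, and neither second probe set was called. NDUFS3, a core subunit of complex I, was the widest apart. Its brightest probe set, used here, and the next differed by 0.19 ± 0.12 and 0.19 ± 0.11 from 24 to 72 h, while the dimmest, with a mean of 7.09, differed by -1.22 ± 0.415 (adjusted p = 0.0193). The slope on CKM was 0.355 ± 0.06 for that probe set, against 0.08 ± 0.02 for the brightest. Other dimmer probe sets were also called where the brightest was not. That of NDUFA1, with a mean of 10.52, was lower at 168 h (-0.94, limma adjusted p = 0.00773) and 72 h (-0.85, adjusted p = 0.0268). From 24 to 72 h the second probe sets of COX7C (-0.33, adjusted p = 0.0123) and ATP5S (-0.37, adjusted p = 0.00294) were lower. In that window the third of NDUFV2 was higher (0.22, adjusted p = 0.0118).

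Other mitochondrial genes were counted by lists, each gene read from its brightest probe set, as in the 6765 genes with 1 symbol. Of those 6765 genes 24.9% were higher at 24 h without CKM, 24.9% with it, and 30.8% from 24 to 72 h without it (of all probe sets 18.2% were higher from 24 to 72 h). Of 58 mitochondrial ribosome genes, which serve translation of the mitochondrially encoded subunits, 45 rose at 24 h without CKM (median 0.50) and 46 with it, and 46 rose from 24 to 72 h, led by MRPS30 (0.80 ± 0.10, adjusted p = 2.57e-08) and MRPL35 (0.76 ± 0.07, adjusted p = 1.5e-11). Of 11 measured assembly and import genes out of 25 listed, 8 rose at 24 h and 7 from 24 to 72 h, among them TIMM8A, an import chaperone (0.775 ± 0.08, adjusted p = 1.24e-09), and HSPD1, the mitochondrial chaperonin (0.40 ± 0.08, adjusted p = 4.23e-05). At 24 h without CKM these counts stood beside 10 of 63 for the respiratory chain, a difference between lists that was not tested.

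Of 14 citric acid cycle genes out of 15, 4 rose at 24 h without CKM and 10 with it, the first a share near the 24.9% of all genes. From 24 to 72 h 2 rose and 1 fell, with DLST, part of the oxoglutarate dehydrogenase complex, at 0.28 ± 0.07 (adjusted p = 0.00131) and CS, citrate synthase, at -0.28 ± 0.08 (adjusted p = 0.00678). Of 15 other carriers of electrons and ATP out of 16, 4 rose at 24 h, again near that share, and 8 with CKM. SLC25A5, an ADP and ATP carrier, rose by 0.61 ± 0.07 from 24 to 72 h (adjusted p = 2.38e-09) and by 0.47 ± 0.07 from 168 to 514 h (adjusted p = 1.27e-06). UCP2, an uncoupling protein family member, rose by 0.58 ± 0.13 from 24 to 72 h (adjusted p = 0.000393), and UCP3, its muscle relative, fell by 0.69 from 168 to 514 h (SE 0.16, adjusted p = 0.00125). Of 12 fatty acid oxidation genes 0 passed at 24 h, and from 24 to 72 h CPT1A, the entry enzyme, rose by 0.46 ± 0.155 (adjusted p = 0.0182) and ACADL, a long-chain dehydrogenase, fell by 0.29 (SE 0.09, adjusted p = 0.0107).

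Glycolysis makes ATP outside the mitochondrion. Of 16 measured glycolysis genes out of 20, 4 rose and 2 fell at 24 h (median 0.13), and 6 rose and 1 fell at 168 h (median 0.38), where the respiratory chain median was -0.20. The counts at 24 h were near the shares of all genes with 1 symbol, 24.9% higher and 11.4% lower (of all probe sets 12.7% were lower). At 168 h 14.5% of those genes were higher and 9.46% lower (of all probe sets 9.87% were higher). The difference between the lists was not tested. SLC2A3, a glucose transporter, rose by 1.98 ± 0.21 from 24 to 72 h (adjusted p = 6.68e-10) and by 1.825 ± 0.21 from 168 to 514 h (adjusted p = 1.47e-08), where SLC2A1, another glucose transporter, rose by 1.05 ± 0.11 (adjusted p = 4.99e-09). PFKM, the muscle phosphofructokinase, fell by 1.53 from 24 to 72 h (SE 0.57, adjusted p = 0.0321) and was not called with CKM (-0.59, adjusted p = 0.232). Of the regulators of mitochondrial biogenesis 3 of 10 were measured, and TFB1M, a mitochondrial rRNA methyltransferase, rose by 0.27 ± 0.11 from 24 to 72 h (adjusted p = 0.0471).

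**Figure D5:**
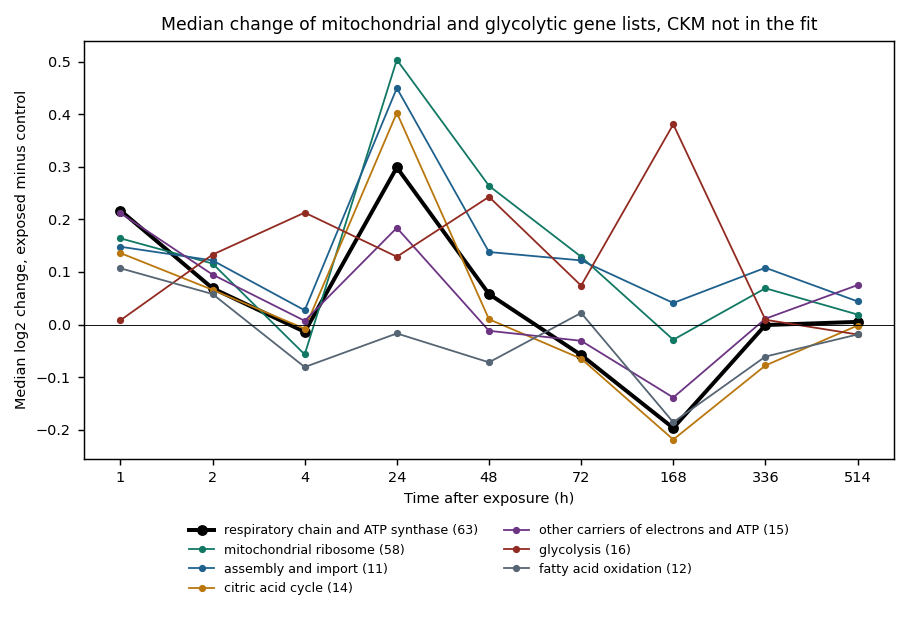
Median log2 difference, exposed minus control, over the genes of each list against time after exposure, for the respiratory chain and ATP synthase genes, the mitochondrial ribosome, assembly and import, the citric acid cycle, other carriers, glycolysis and fatty acid oxidation. The respiratory chain, ribosome, citric acid cycle and assembly medians are highest at 24 h, and at 168 h glycolysis stands at 0.38 and the respiratory chain at -0.20. The 24, 48 and 72 h arrays were scanned in different periods.

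Sham skin came from other animals and gave the background between unexposed sites. In sham minus control arrays over all 9 times, limma called 0 of 63 genes (0.0208% of all probe sets), with 4 at an unadjusted p under 0.05. These were COX8H (-1.19 ± 0.52), COX7A1 (-0.44 ± 0.21), ATP5S (-0.145 ± 0.06) and COX6A1 (0.12 ± 0.05). Of all 23999 probe sets 2168 were at an unadjusted p under 0.05, a larger share than 4 of 63. The median over the 63 genes was -0.10, and -0.02 with CKM, where 0 genes were at an unadjusted p under 0.05 (1121 of all 23998 probe sets). Sham CKM averaged 10.88 from 24 to 72 h and 8.93 from 168 to 514 h.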

How the data were processed

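Total RNA (10 µg) from each skin biopsy was run on an Affymetrix Porcine Genome array. The deposited log2 values, 1 per probe set and array, come from RMA as the authors ran it; RMA and Partek are the tools that the submitters' processing notes name. Versions are not given in the sources used here. Nothing was renormalized. Of 24123 probe sets, 124 array controls were left out and 23999 tested; 10069 had 1 gene symbol in the platform annotation, 198 several and 13732 none listed, and all 63 genes matched RefSeq (Sscrofa11.1) by gene number. The number of arrays limits the precision.

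One limma fit (limma 3.58.1, R 4.3.3) gave each of the 27 groups of treatment and time a mean over all 63 arrays (36 residual degrees of freedom, 3.24 prior). Exposed and control means were compared at every time and over 3 windows of times, both without CKM and with it in the fit, and without pairing of sites. Scan dates fell in 3 periods, and each window holds a time from each of them. A difference between times within a window thus cannot be told apart from one between periods. Isoform pairs and marker means were tested by exact permutation within times (8000 arrangements, so that 0.00025 is the smallest two-sided p). The fits were tested on simulated data. The members, lists and tests were chosen with earlier results of these data known. Named genes are the largest called changes per time (4 each way) and window (8 each way), the largest or smallest-p gene per complex, all SDH genes, isoform pairs and the extreme slopes on CKM. Values on every array of other genes were chosen after they were seen. Alternatives were muscle and fat covariates, pairing, normalization, filter, probe set choice, sham controls, labelling date, array weights and leaving out each array.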

Additional observations from a re-analysis of the deposited data

Results flagged for a closer look

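A difference between 2 windows passed the test itself in 3 genes. From 1 to 4 h to 24 to 72 h it was 2 of 63, where 16.5% of all probe sets and 23.2% of genes with 1 symbol were called. From 24 to 72 h to 168 to 514 h it was 1 of 63, where 8.45% and 11.6% were called. COX7A2 changed more from 24 to 72 h than from 1 to 4 h, by 0.324 log2 units (SE 0.11, limma adjusted p = 0.0274), and NDUFAF3 by 0.274 (SE 0.08, adjusted p = 0.0198). ATP5E was lower by more from 168 to 514 h (-0.26) than from 24 to 72 h (-0.03), a difference of -0.231 (SE 0.07, adjusted p = 0.0344). Between 24 h and 168 h the exposed minus control difference itself differed in 9 of the 63 genes by the same test, all lower at 168 h, where 10.3% of all probe sets and 15.4% of genes with 1 symbol were called. That contrast was added after the values were seen, and its count was 4 without exposed replicate 2 or control replicate 3 at 168 h. A further observation is a sign that turned in every pair: 21 genes were higher in all 3 exposed arrays than in their same-numbered controls at 24 h and lower in all 3 at 168 h, against 3.38% of all probe sets, and for these the difference between the times was not tested as a group. Taken singly, 42 of 63 genes were higher in 3 of 3 pairs at 24 h and 36 were lower at 168 h, so a large overlap follows from those counts. With CKM in the fit the median difference of the 63 genes at 168 h was 0.06.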

How the results depend on the processing

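Counts of genes called moved most with the muscle covariate and the pooling of the spread. With CKM as a covariate the count was 36 at 24 h, 24 from 24 to 72 h and 14 for 168 h minus 24 h, and with the muscle marker mean 38, 33 and 28, with 6 and 3 for the differences between neighbouring windows. With CKM and fat markers it was 36 at 24 h, 26 from 24 to 72 h, 3 from 168 to 514 h and 0 for the last difference between windows, and with CKM and its square 8 at 168 h. Array numbers were not shown to mark an animal: same-numbered deviations correlated above 0.1 in 21 of 27 pairs (mean r 0.27) and in all pairs at 5 of 9 times. Same-numbered arrays shared a sacrifice day in 27 of 27 pairs. With a replicate block the count was 21 at 24 h, 12 at 168 h, 14 from 24 to 72 h and 19 for 168 h minus 24 h, and with the block and CKM 35, 1 at 514 h, 22 from 24 to 72 h, 3 from 168 to 514 h, 2 and 22 for the differences. The block also left the CKM (-1.704) and muscle mean (-1.775) differences from 24 to 72 h (both adjusted p = 0.0633) and ATP5G2 minus ATP5G3 (-0.249, adjusted p = 0.0625) short of the threshold, and COX7A2 minus COX7A1 at 0.0469. The arrays of the comparison alone gave 30 at 24 h, 0 at 48 h, 1 at 168 h and 20 from 24 to 72 h. Array weights gave 1 at 1, 2 and 336 h, 23 at 24 h, 15 from 24 to 72 h, and 4, 5 and 16 for the differences, and with CKM 2 at 1 h, 1 at 2 h, 3 at 336 and 514 h and 11 from 168 to 514 h. Repeated quantile normalization gave 2 at 48 h with or without CKM and 1 at 514 h. The last difference between windows was 2 without the dimmest 25% of probe sets, 3 with the mean of all probe sets (5 for the earlier difference) and 3 with labelling date as a term, which with CKM gave 3 from 168 to 514 h. Sham arrays as controls gave 0 from 168 to 514 h. The slope on CKM was called in 1 gene in exposed arrays alone. COX8H turned positive at 24 h with CKM (0.886), the muscle mean (0.522), CKM and the block (1.116) or CKM and fat (0.808), at 168 h with CKM (0.921), the block (1.151) or fat (1.167), from 168 to 514 h (0.145, 0.286 and 0.420, and 0.228 against sham) and from 24 to 72 h against sham (0.885), and COX7A1 at 24 h with CKM and the block (0.054), none of them called. The cause of these moves was not tested. For most of these settings, and with 1 array left out, no share of all probe sets is printed here. Such moves are thus not shown to be particular to these genes.

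With 1 array left out, counts ran from 5 to 9 at 24 h, 1 to 5 at 48 h, 3 to 6 at 168 h, 1 to 3 and 0 to 3 for the differences between windows, 4 to 10 for 168 h minus 24 h and 9 to 38 for the slope, and with CKM from 1 to 6 at 48 h, 2 to 5 at 168 h and 3 to 6 from 168 to 514 h. CKM ran from -1.99 to -1.444 from 24 to 72 h and from -2.907 to -1.765 from 168 to 514 h, the muscle mean from -2.062 to -1.424 and from -2.48 to -1.232, ATP5G2 minus ATP5G3 from -0.299 to -0.209 and ATP5G1 minus ATP5G2 from 0.175 to 0.248. Of 273 counts under settings that kept all arrays, 220 stayed within 1.5 times, and with 1 array left out 878 of 921 did. These include counts that were 0 and stayed 0, such as those with CKM at 1, 2, 4, 72, 336 and 514 h, in 54 cases each. The totals therefore do not measure how stable the counts above 0 were. At 24 h without CKM the count was 10 with all arrays and 5 to 9 with 1 left out. The precision is limited by 3 arrays a group, and the replicate block, which holds no sham arrays, gave no sham comparison.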
